A study of Homo sapiens with 11 samples.

Results

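The interferon genes considered here are 8 of the 58699 genes in a total RNA table of HCT116 cells, chosen by gene symbol alone: the type III ligands IFNL1, IFNL2 and IFNL3, the type I ligand IFNB1, the type III receptor subunits IFNLR1 and IL10RB, and the type I receptor subunits IFNAR1 and IFNAR2. All 8 symbols were found once in the table. HCT116 is an established human colorectal cancer cell line of epithelial origin. Control cells carried a luciferase siRNA (siLuc) and knockdown cells an siRNA to Staufen1 (siStau1), a protein that binds double-stranded RNA. Each was given either DMSO, the solvent, or decitabine (DAC), which inhibits DNA methylation, at 500 nM for 5 days per the labels. This gave 4 groups of 2 total RNA libraries, written below as siLuc DMSO and DAC and siStau1 DMSO and DAC. Where 4 values follow each other they stand in that order. All groups come from this 1 cell line and all were transfected with an siRNA, so no group shows untransfected cells. By its title, the series concerns how stabilised double-stranded RNAs of endogenous retroviruses evoke an immune response once DNA methylation is inhibited.

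Interferons are secreted proteins that cells make after they sense foreign or misplaced nucleic acid. Sensors of double-stranded RNA signal through MAVS and the kinase TBK1 to the transcription factors IRF3, IRF7 and NF-kB, which switch on the ligand genes. Interferon beta binds the IFNAR1 and IFNAR2 pair found on nearly all nucleated cells, whereas the lambda ligands bind IFNLR1 together with IL10RB, and IFNLR1 is largely kept to epithelial cells such as those of the gut. Both receptor pairs use the kinases JAK1 and TYK2 and the transcription factors STAT2 and IRF9 to turn on interferon-stimulated genes. Decitabine lowers DNA methylation, after which repeat transcripts that form double-stranded RNA can be made.

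The ligand genes lie in 2 clusters, with positions from GENCODE 29 on GRCh38. IFNL1 (ENSG00000182393.2, chr19:39296325-39298673, plus strand), IFNL2 (ENSG00000183709.7, chr19:39268514-39270092, plus strand) and IFNL3 (ENSG00000197110.8, chr19:39243553-39245129, minus strand) are neighbours on chromosome 19. IFNB1 (ENSG00000171855.6, chr9:21077105-21077963, minus strand) lies at the edge of the type I cluster on chromosome 9. The receptor genes IFNAR2 (ENSG00000159110.19, chr21:33229901-33265675), IL10RB (ENSG00000243646.9, chr21:33266358-33310187) and IFNAR1 (ENSG00000142166.12, chr21:33324477-33359862) follow each other on the plus strand of chromosome 21. IFNLR1 (ENSG00000185436.11, chr1:24154157-24187959) is on the minus strand of chromosome 1.

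The 250 bases before the RefSeq start (GRCh38.p14) are shown for 3 ligands, because the factors that switch on type I and type III ligands bind there. Capitals mark every match to AANNGAAA, the core bound by interferon regulatory factors, on either strand, some as its reverse complement, with overlapping matches counted. The windows are IFNL1 at chr19:39296157-39296406 (plus strand), IFNL2 at chr19:39268146-39268395 (plus strand) and IFNB1 at chr9:21077943-21078192 (minus strand). The last bases of the IFNL1 and IFNB1 windows lie inside the longer GENCODE gene models.
IFNL1: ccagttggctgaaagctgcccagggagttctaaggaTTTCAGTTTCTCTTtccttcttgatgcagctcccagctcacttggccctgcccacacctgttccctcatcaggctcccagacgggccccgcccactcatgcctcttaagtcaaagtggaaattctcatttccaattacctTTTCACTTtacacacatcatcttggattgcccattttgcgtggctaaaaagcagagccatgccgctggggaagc
IFNL2: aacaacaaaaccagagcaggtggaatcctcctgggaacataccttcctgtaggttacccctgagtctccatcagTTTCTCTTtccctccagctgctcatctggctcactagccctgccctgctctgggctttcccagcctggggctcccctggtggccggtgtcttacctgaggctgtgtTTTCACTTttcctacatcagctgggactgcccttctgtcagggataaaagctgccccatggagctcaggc
IFNB1: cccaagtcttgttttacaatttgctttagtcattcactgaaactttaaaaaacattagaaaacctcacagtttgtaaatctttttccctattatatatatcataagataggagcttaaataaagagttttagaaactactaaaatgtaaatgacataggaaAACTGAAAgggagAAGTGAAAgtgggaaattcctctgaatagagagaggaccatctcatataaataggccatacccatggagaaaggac

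RefSeq upstream windows were matched for 7 of the 8 genes. IFNL1 had 3 AANNGAAA matches, at 214 to 207, 208 to 201 and 74 to 67 bases before its start. IFNL2 and the first IFNL3 window had 2 each, and these 2 windows differed at 1 of 250 bases. IFNB1 had 2, at 89 to 82 and 76 to 69 bases before its start, followed by the NF-kB motif GGGAAATTCC at 66 to 57. IFNLR1, IL10RB and IFNAR1 had no AANNGAAA match in these windows, and 20.3% of all 35116 windows of this length held one. A looser NF-kB pattern (GGG and CC with 5 free bases between), searched on both strands with overlaps counted, was in 54.4% of all windows and in those of IFNL1, IFNL2, IFNL3, IFNB1, IFNLR1 and IL10RB, so it separated few genes. CpG dinucleotides, the sites of DNA methylation, were fewer before the ligand genes than before the receptor genes. The ligand counts were 4 for IFNL1, 1 each for IFNL2 and IFNL3 and 0 for IFNB1. The receptor counts were 24 for IFNLR1, 17 for IL10RB and 15 for the first IFNAR1 window. The median over all windows was 11, with quartiles of 3 and 23, so IFNL1, IL10RB and this IFNAR1 window lay between the quartiles.

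The authors' deposited table gives 1 FPKM (fragments scaled by transcript length and library size) per gene and group, so the values below carry no standard deviation and depth is unknown. Its q-values are p-values adjusted over all 102180 tests of 6 comparisons, and a gene is called at a q-value under 0.05. Because bulk RNA was measured, fewer cells expressing a gene and less RNA per cell cannot be told apart. STAU1, the siRNA target, was listed at 35.5 and 33.7 FPKM in siLuc DMSO and DAC and at 30.0 and 27.1 in siStau1 DMSO and DAC, and the authors' deposited table called neither difference (q-values 0.767 and 0.685), so siStau1 below names the labelled group. Log2 ratios moved with the GC content of the transcript across protein-coding genes: Spearman's rho was 0.659 for DAC over DMSO in siLuc, 0.624 in siStau1, -0.487 for siStau1 over siLuc in DMSO and -0.715 in DAC, given as a description over genes that share libraries. The IFNL transcripts are GC-rich (56.5% to 60.4%) and IFNB1 is not (42.0%), so the lambda ratios of the decitabine and the siStau1 comparisons are also given relative to genes of similar GC content. The part of GC content in the results was not tested further.

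The 3 lambda genes were highest in siLuc DAC and lowest in siStau1 DMSO. In siLuc cells IFNL1 was listed at 3.97 FPKM with DMSO and 15.5 with DAC, and in siStau1 cells at 0.0589 with DMSO and 2.71 with DAC. IFNL2 stood at 1.99, 10.4, 0.0356 and 2.17 FPKM in the same order of groups. IFNL3 stood at 3.35, 12.9, 0.124 and 1.83 FPKM. All 3 thus shared their highest and their lowest group by listed FPKM. In the middle, IFNL1 and IFNL3 were lower in siStau1 DAC than in siLuc DMSO, IFNL2 slightly higher. The authors' test did not separate these middle groups for any of the 3 (q-values 0.729, 0.959 and 0.626 for IFNL1, IFNL2 and IFNL3).

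Summed over the 3 genes, siLuc cells had 9.31 FPKM with DMSO and 38.8 with DAC, and siStau1 cells had 0.218 and 6.71. The highest group exceeded the lowest by 264-fold for IFNL1, 292-fold for IFNL2 and 104-fold for IFNL3, with denominators near 0. IFNL2 and IFNL3 are near copies: their longest transcripts matched at 719 of 734 aligned bases (98.0%), and 32.0% of the 50-base windows of IFNL2 occur unchanged in IFNL3. How the authors shared reads between them is not given in the sources used here, so their separate values are uncertain. Their ratio moved between groups (IFNL3 over IFNL2 was 1.69, 1.24, 3.49 and 0.844), and their sum was 5.34, 23.3, 0.160 and 4.0 FPKM. IFNL1 shares no 50-base window with either copy, matched IFNL2 at 76.5% and IFNL3 at 75.7% of aligned bases, and is the member of the family measured with the least ambiguity.

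IFNB1, the single human interferon beta gene, followed another order by listed FPKM. It was listed at 2.63 FPKM with DMSO and 1.27 with DAC in siLuc cells, and at 0 and 0.216 in siStau1 cells. Its highest listed value was thus in the solvent control and not in the decitabine group. The authors' test did not separate siLuc DMSO from siLuc DAC for IFNB1 (q-value 0.547 in the authors' deposited table). IFNB1 made up 22.0% of the summed FPKM of the 4 ligands in siLuc DMSO and, with DAC, 3.17% in siLuc and 3.12% in siStau1. The lambda genes thus held most of that sum in each group.

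**Figure D1:**
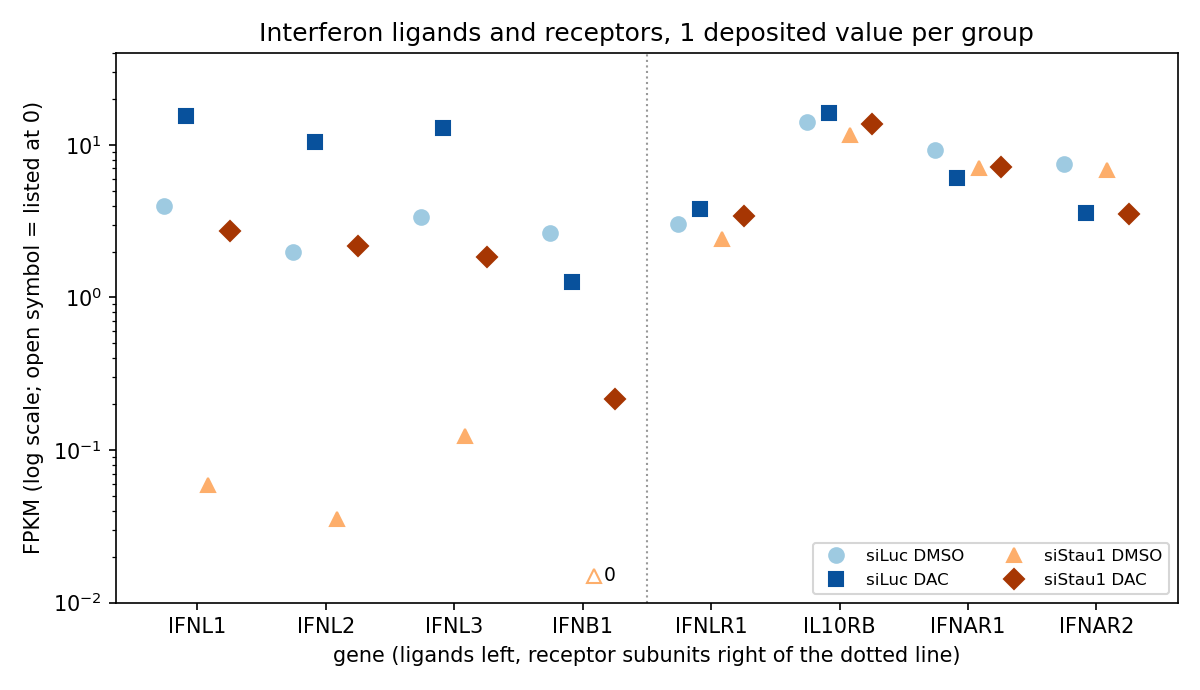
Deposited FPKM (log axis) of the 4 ligands and 4 receptor subunits in the 4 groups, 1 value per group and no error bars because none can be given. The lambda genes run from under 0.2 FPKM in siStau1 DMSO to over 10 in siLuc DAC. IFNB1 is highest in siLuc DMSO and listed at 0 in siStau1 DMSO (open symbol). The receptor subunits vary less, with the widest range for IFNAR2 (2.12-fold), which is lower with decitabine in both arms.

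Decitabine over DMSO in siLuc cells asks how the ligands respond to the drug. DNA methylation itself is not among the values used here. IFNL1 rose, by 1.94 on the log2 scale of FPKM + 0.1 (q-value 0.0134 in the authors' deposited table). IFNL2 and IFNL3 had log2 ratios of 2.33 and 1.91 that missed the threshold (q-values 0.0700 and 0.0646 in the authors' deposited table). IFNB1 had a log2 ratio of -0.99 and was not called (q-value 0.547 in the authors' deposited table). So 1 of the 8 genes was called, against 13.5% of the 17504 genes tested, a share near the background.

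Relative to genes of similar GC content these ratios were 1.18 for IFNL1, 1.40 for IFNL2, 0.98 for IFNL3 and -0.49 for IFNB1. When p-values were adjusted within this comparison alone, all 3 lambda genes passed (3 of 8, against 16.8% of all genes tested). At a q-value under 0.01 none did, against 7.97% of all genes. Among 12610 protein-coding genes with at least 1 FPKM in some group, IFNL2 had the 799th highest ratio, IFNL1 the 1077th and IFNL3 the 1110th.

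In siStau1 cells the decitabine ratios of the lambda genes were not called. They were 4.14 for IFNL1, 4.07 for IFNL2 and 3.11 for IFNL3, with q-values of 0.533, 0.315 and 0.609 in the authors' deposited table, and the starting values were all under 0.2 FPKM. IFNB1, listed at 0 in siStau1 DMSO and at 0.216 FPKM in siStau1 DAC, was not tested by the authors. None of the 7 genes tested was called, and none had an unadjusted p under 0.05 in the authors' deposited table, against 7.46% of all genes called and 19% with such a p. The ratios depended on the pseudocount: with 1 in place of 0.1 they were 1.81 for IFNL1, 1.61 for IFNL2 and 1.33 for IFNL3, and IFNL1 was at 5.30 with 0.01. Against genes of similar GC content they were 3.58, 3.40 and 2.44.

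Which siRNA arm showed the larger decitabine response depended on the scale. On the log2 scale of FPKM + 0.1 the ratio in siStau1 minus that in siLuc was 2.204 for IFNL1, 1.74 for IFNL2 and 1.19 for IFNL3, where the median over 15956 genes was -0.02. In FPKM added, IFNL1 gained 11.6 in siLuc and 2.65 in siStau1. IFNL2 gained 8.39 and 2.13, and IFNL3 gained 9.55 and 1.71. With a pseudocount of 1 the log2 ratio in siLuc and siStau1 was 1.73 and 1.81 for IFNL1, 1.93 and 1.61 for IFNL2, and 1.68 and 1.33 for IFNL3, so the order of the arms turned for IFNL2 and IFNL3. The absolute gain was larger in siLuc for all 3 genes, and with 1 value per group the difference between arms was not tested.

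Without decitabine, the groups labelled siStau1 and siLuc were compared in DMSO, where STAU1 itself was not called. IFNB1 fell from 2.63 FPKM in siLuc to a listed 0 in siStau1 (q-value 0.00162 in the authors' deposited table, the smallest it gives), and no fold is given against a 0. The lambda genes had log2 ratios of -4.68 (IFNL1), -3.94 (IFNL2) and -3.95 (IFNL3) and were not called (q-values 0.533, 0.315 and 0.609 in the authors' deposited table). So 1 of 8 genes was called, against 0.799% of 15893 genes tested. By size of ratio, IFNB1 was the 4th lowest of 12610 protein-coding genes, IFNL1 the 5th, IFNL3 the 12th and IFNL2 the 13th. These ranks rest on a listed 0 and on values under 0.2 FPKM and on the pseudocount: with 1, IFNL1 (-2.23) and IFNL3 (-1.95) lay below IFNB1 (-1.86).

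These p-values did not follow the size of the difference. IFNL1, IFNL2 and IFNL3 each had 1 p-value, unchanged within 0.0001, in all 3 comparisons of the authors' deposited table that hold siStau1 DMSO: 0.169, 0.0613 and 0.245. Genes sharing a p-value at or below 0.0001 were left out of the following counts of shared p-values, so these counts do not cover the smallest p-values. Among 62 genes tested in all 3 comparisons with siStau1 DMSO above 0 and under 0.2 FPKM this happened for 4 (6.45%). Beside the lambda genes this was XAF1. Among 13315 genes with at least 1 FPKM there it happened for 8. Of genes with at least 1 FPKM in siLuc DMSO, the authors' deposited table called 9 of 64 (14.1%) where siStau1 DMSO was listed at 0 and 4 of 101 (3.96%) where it was above 0 and under 0.2 FPKM. IFNB1 belongs to the former group and the lambda genes to the latter, so the call of IFNB1 and the lack of one for the lambda genes does not show that they differ. The ratios also rest on the pseudocount: IFNL1 was at -5.85 with 0.01 and at -2.23 with 1. Relative to genes of similar GC content the lambda ratios were -4.41, -3.69 and -3.69.

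With decitabine in both arms, all 3 lambda genes fell in siStau1. IFNL1 was 5.73-fold lower (log2 ratio -2.48, q-value 0.00732 in the authors' deposited table). IFNL2 was 4.78-fold lower (log2 ratio -2.21, q-value 0.0377 in the authors' deposited table), and IFNL3 was 7.05-fold lower (log2 ratio -2.75, q-value 0.0221 in the authors' deposited table). IFNB1 had a log2 ratio of -2.12 from low values and was not called (q-value 0.427 in the authors' deposited table). So 3 of 8 genes were called, all lower, against 0.904% of 17263 genes tested (0.469% lower).

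Relative to genes of similar GC content the lambda ratios were -2.10, -1.73 and -2.22, and that of IFNB1 was -2.48. All 4 ligands were among the 27 lowest ratios of the 12610 protein-coding genes (IFNL3 15th, IFNL1 19th, IFNL2 26th, IFNB1 27th). When p-values were adjusted within this comparison alone, no gene of the 17263 passed (0%) and so none of the 8. The calls here thus rest on adjustment over all 6 comparisons together, and at a q-value under 0.01 only IFNL1 remained, against 0.197% of all genes.

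**Figure D2:**
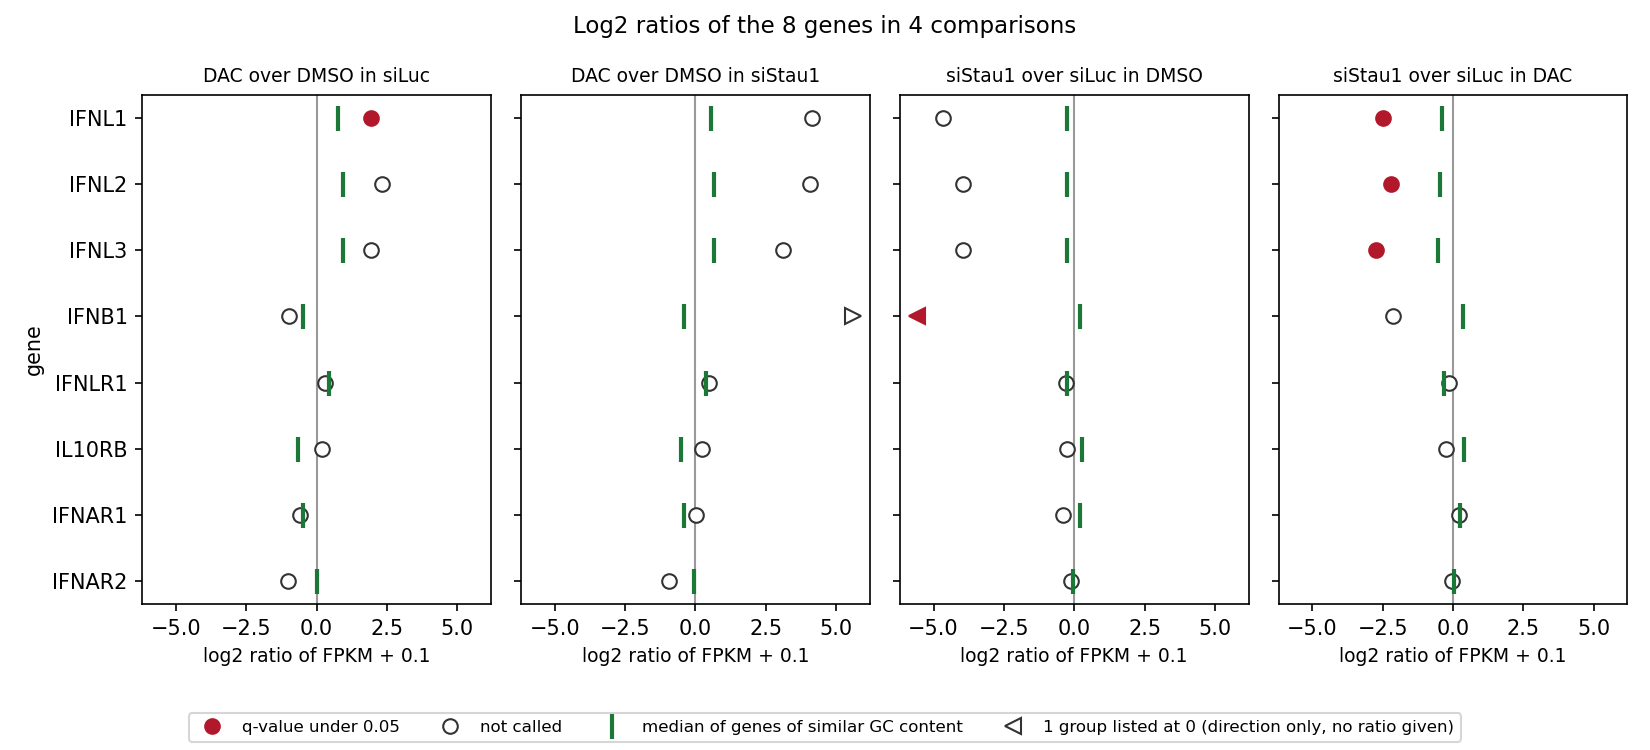
Log2 ratios of FPKM + 0.1 for the 8 genes in 4 comparisons (x axis), with filled symbols for q-values under 0.05, green bars for the median of genes of similar transcript GC content, and a triangle for direction only where IFNB1 was listed at 0 in 1 group. The lambda genes lie right of their green bars with decitabine and left of them with siStau1, while the receptor subunits lie within 1.05 of theirs.

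Cells with both siStau1 and decitabine were also set against siLuc cells with DMSO. The log2 ratios were -0.54 for IFNL1, 0.12 for IFNL2 and -0.84 for IFNL3, none of them called. IFNB1 had a log2 ratio of -3.11 (p-value 0.0578 and q-value 0.305 in the authors' deposited table), the 11th lowest of 12610 protein-coding genes. None of the 8 genes was called and none had an unadjusted p under 0.05, against 4.98% of all 16909 genes called and 13.6% with such a p. Relative to genes of similar GC content the IFNL2 ratio changed sign, to -0.30.

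The receptor subunits varied far less than their ligands. IFNLR1, which binds the lambda ligands, was listed at 3.02, 3.78, 2.43 and 3.43 FPKM. IL10RB, the partner chain shared with the IL-10 and IL-22 receptors, was listed at 14.1, 16.2, 11.7 and 13.7 FPKM. By listed FPKM both were slightly higher with decitabine in each arm and slightly lower with siStau1 in each treatment, without a call. For IL10RB the log2 ratios were larger against genes of similar GC content. With decitabine they went from 0.20 to 0.84 in siLuc and from 0.23 to 0.75 in siStau1. With siStau1 they went from -0.27 to -0.55 in DMSO and from -0.24 to -0.62 in DAC. Relative to genes of similar GC content the IFNLR1 ratio turned to -0.12 for decitabine in siLuc and to 0.19 for siStau1 in DAC, and with the summed FPKM of protein-coding genes made equal the latter was at 0.0037.

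IFNAR1, the type I subunit that TYK2 binds, was listed at 9.23, 6.07, 7.05 and 7.13 FPKM in the same group order. IFNAR2, its partner that JAK1 binds, was listed at 7.47, 3.60, 6.88 and 3.52 FPKM, lower with decitabine in both arms (log2 ratios -1.03 and -0.95, q-values 0.645 and 0.699 in the authors' deposited table). The highest group exceeded the lowest by 1.56-fold for IFNLR1, 1.39-fold for IL10RB, 1.52-fold for IFNAR1 and 2.12-fold for IFNAR2. None of the 4 subunits was called in any of the 5 comparisons, and a missed threshold does not show that they stayed equal. Of all genes tested, 13.5% and 7.46% were called for decitabine in siLuc and siStau1. For siStau1 in DMSO and DAC the shares were 0.799% and 0.904%, and for siStau1 DAC over siLuc DMSO 4.98%. For only 4 genes, a count of 0 is near these shares and does not set the subunits apart. On the FPKM scale, which is per length, IL10RB was the highest of the 4 in every group. IFNLR1 was the lowest in every group but siLuc DAC, where IFNAR2 was.

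IFNAR2 and IL10RB overlap another gene model, which touches their values. AP000295.1 (ENSG00000249624.9, chr21:33229901-33297160) is annotated as a protein-coding gene across both, and the table gives all 3 as 1 locus. It was listed at 1.22, 0.884, 6.08 and 1.10 FPKM, highest in siStau1 DMSO (log2 ratio 2.22 over siLuc DMSO, q-value 0.634 in the authors' deposited table). Reads in the shared exons could be assigned to either model, so the IFNAR2 and IL10RB values are uncertain to that extent.

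Other interferons were at or near 0. Of 16 other type I genes (13 interferon alpha genes, IFNE, IFNK and IFNW1), 12 were listed at 0 in all 4 groups and none was tested by the authors. IFNE, an epithelial type I interferon, was the highest, at 0.144 to 0.251 FPKM, and no other reached above 0.0679. IFNG and IFNL4 were listed at 0 in all groups. The 6 other ligands of the IL10 family (IL10, IL19, IL20, IL22, IL24 and IL26) were all under 1 FPKM. IFNL1, IFNL2, IFNL3 and IFNB1 were therefore the only interferon genes in these lists that reached 1 FPKM.

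Upstream of the ligands, 16 genes from double-stranded RNA sensing to interferon induction were followed. With decitabine 6 were called higher in siLuc and 4 in siStau1 (8.71% and 4.56% of all genes tested were), none was called lower, and 4 of 16 had a lower FPKM in each arm. In siLuc these included IRF7, the factor that amplifies interferon induction (11.8 to 78.5 FPKM), IRF3, which starts it (18.8 to 65.3 FPKM), JUN, which joins these factors at the IFNB1 enhancer (3.18 to 34.9 FPKM), and the NF-kB subunit RELA (9.85 to 28.3 FPKM). Set against genes of similar GC content, the log2 ratio went from 2.72 to 1.52 for IRF7, from 1.79 to 1.00 for IRF3, from 3.41 to 2.65 for JUN and from 1.51 to 0.75 for RELA. In siStau1, JUN (1.45 to 18.4 FPKM), the RNA sensor genes DDX58 (20.2 to 53.5 FPKM) and IFIH1 (12.9 to 29.1 FPKM), and IRF7 (6.11 to 32.9 FPKM) rose. With siStau1, DDX58 fell in DMSO (41.5 to 20.2 FPKM) and IRF7 fell in DAC (78.5 to 32.9 FPKM), 1 of 16 each, where 0.466% and 0.469% of all genes were called lower. Adjusted within the comparison both counts were 0, and relative to genes of similar GC content the IRF7 log2 ratio went from -1.25 to -0.61. MAVS, the adaptor below the RNA sensors, was listed between 8.12 and 10.2 FPKM and TBK1 between 9.21 and 26.6, without a call.

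Downstream, 5 kinases and transcription factors below the receptors were followed. STAT2 alone was called with decitabine, in both arms (22.6 to 52.8 FPKM in siLuc and 13.3 to 32.2 in siStau1), where 8.71% and 4.56% of all genes were called higher. Adjusted within the comparison, 2 of 5 passed in siLuc, against 16.8% of all genes. No gene of the 5 was called with siStau1 in either treatment, where 1 (DMSO) and 2 (DAC) of them had an unadjusted p under 0.05 in the authors' deposited table, against 4.3% and 6.95% of all genes. TYK2 was listed at 11.2, 29.6, 11.6 and 13.1 FPKM, IRF9 at 62.1, 78.1, 30.2 and 61.7, and JAK1 at 23.4, 23.2, 26.1 and 26.9.

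Of 25 interferon-stimulated genes, 11 rose with decitabine in siLuc and 16 in siStau1, while 15 fell with siStau1 in DMSO and 8 in DAC, and none was called the other way. By FPKM alone, 4 of the 25 were lower with decitabine in siLuc and 4 higher with siStau1 in DAC. Of all genes tested, 8.71%, 4.56%, 0.466% and 0.469% were called in those directions. Their median log2 ratios were 1.15, 2.41, -2.09 and -0.77, beside 0.23, 0.11, -0.02 and -0.14 over all genes tested. IFITM1, an antiviral membrane protein, was listed at 191, 562, 8.80 and 239 FPKM and was called in all 4 comparisons. OASL, a relative of the oligoadenylate synthetases, was listed at 51.2, 239, 7.20 and 84.0 FPKM and was also called in all 4. MX1, an antiviral GTPase, rose from 3.74 to 266 FPKM with decitabine in siLuc and from 2.08 to 118 in siStau1. Adjusted within each comparison alone, the counts were 12, 16, 9 and 0, against 16.8%, 7.43%, 0.208% and 0% of all genes. The lists overlap: IRF9, IRF7, DDX58, IFIH1 and ISG15, among others, also stand in another list.

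Negative regulators of the receptors were followed as a list of 8, in which ISG15 and its conjugating enzyme UBE2L6 were also counted. ISG15 stands among the interferon-stimulated genes above as well, so these counts partly repeat that list. Of the 8, 3 and 4 were called for decitabine in siLuc and siStau1, and 3 and 1 for siStau1 in DMSO and DAC. Of all genes tested, 13.5%, 7.46%, 0.799% and 0.904% were called in these comparisons. Adjusted within each comparison alone, the counts were 3, 4, 2 and 0, against 16.8%, 7.43%, 0.208% and 0% of all genes. With decitabine in siLuc, SOCS3, an inhibitor of cytokine receptor kinases, rose from 6.77 to 18.2 FPKM, and ISG15 rose. The phosphatase gene PTPN2 fell there from 41.2 to 18.2 FPKM. Set against genes of similar GC content, these log2 ratios were much smaller. They went from 1.41 to 0.48 for SOCS3, from 1.79 to 0.72 for ISG15 and from -1.18 to -0.53 for PTPN2. In siStau1, USP18, which blocks IFNAR2 signalling, rose from 6.78 to 31.4 FPKM with decitabine, UBE2L6, an ISG15-conjugating enzyme, rose from 27.2 to 60.5, ISG15 rose, and PTPN2 fell from 57.1 to 27.8. With siStau1 in DMSO, USP18 (28.3 to 6.78 FPKM), UBE2L6 (71.4 to 27.2 FPKM) and ISG15 fell, and in DAC ISG15 alone did. SOCS1, SOCS3, PTPN6, PTPN11 and PTPN2 were not called in either. Relative to genes of similar GC content, the DMSO log2 ratios were -1.87 for USP18, -1.12 for UBE2L6 and -1.84 for ISG15. In DAC that of ISG15 went from -1.19 to -0.60.

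**Figure D3:**
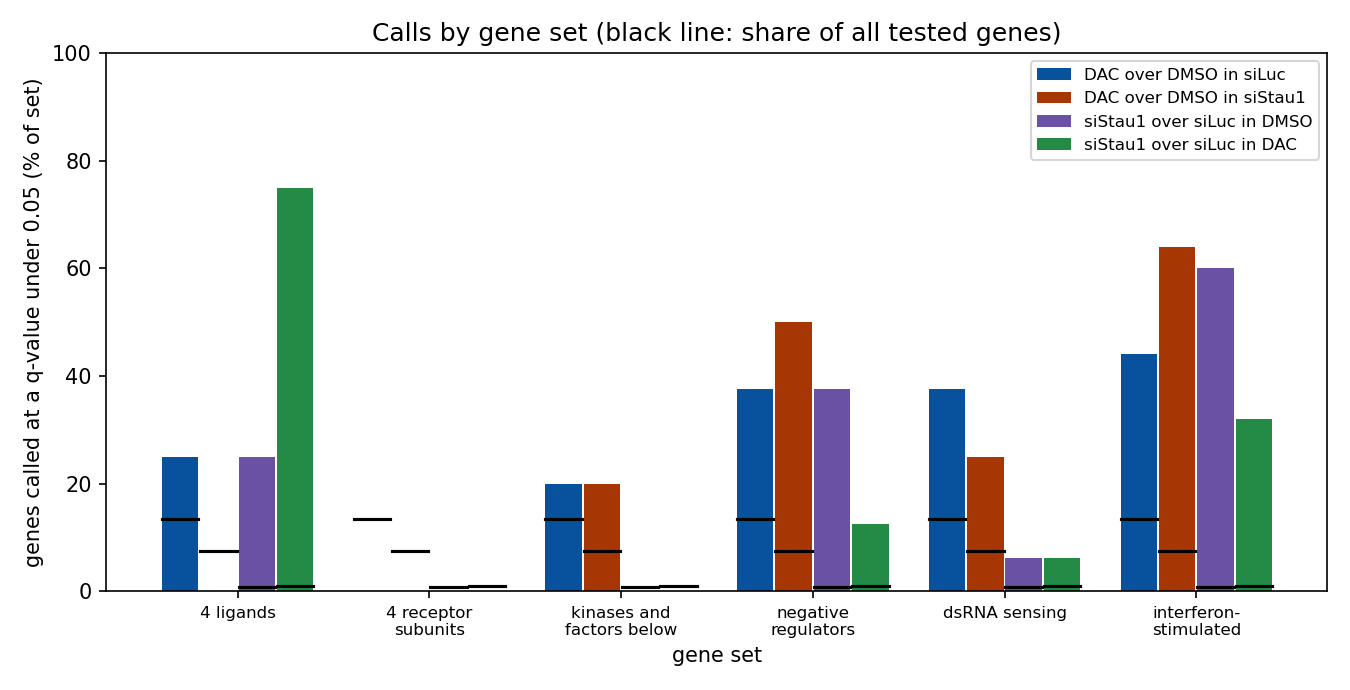
Percentage of each gene set called at a q-value under 0.05 (y axis, from 0) in the 4 comparisons, with the share of all tested genes as a black line. Of the 4 receptor subunits 0 were called in any comparison, near the share of all genes for so few genes. That share was 13.5% and 7.46% for decitabine in siLuc and siStau1, and 0.799% for siStau1 in DMSO. For siStau1 over siLuc in DAC, 3 of the 4 ligands (75%) were called, where 0.904% of all genes were.

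The ligand values were set beside those of their genomic neighbours. Within 100 kb of the lambda genes lie 8 other protein-coding genes, of which 5 or 6 were tested in each of the 4 comparisons and none was called. Of all genes tested, 13.5% and 7.46% were called for decitabine in siLuc and siStau1. For siStau1 in DMSO and DAC 0.799% and 0.904% were, so none among so few neighbours is near these shares. The log2 ratios of these neighbours ran from -0.78 to 1.29 for siStau1 over siLuc in DMSO and from -0.98 to 0.63 in DAC. With decitabine they ran from 0 to 2.03 in siLuc and from -0.05 to 1.47 in siStau1. SAMD4B, an RNA-binding protein gene near the cluster, was listed at 9.86, 20.8, 8.26 and 11.6 FPKM. Near IFNB1, FOCAD was listed at 25.7, 24.4, 28.5 and 26.4 FPKM and IFNW1 and IFNA21 at 0 in all groups.

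Of the 5 genes nearest to IFNL1 in profile, 4 stand in the list of interferon-stimulated genes. The measure was the Euclidean distance over the 4 groups between log2(FPKM + 0.1) values centred on each gene's mean, among 12602 protein-coding genes. RARRES3, a retinoic acid receptor responder, was nearest at a distance of 0.745, with 4.40, 20.7, 0.208 and 5.67 FPKM. IFITM1 (0.902), IFI27 (1.43), OASL (1.498) and RSAD2 (1.57) followed. IFNL2 lay at 0.576 and IFNL3 at 0.768 from IFNL1, IFNB1 at 2.72, and the receptor subunits at 4.39 to 5.45. The group order of IFNL1 (siLuc DAC, siLuc DMSO, siStau1 DAC, siStau1 DMSO from high to low) was shared by 5.20% of 12610 protein-coding genes and by 7 of the 25 interferon-stimulated genes.

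The genes nearest to IFNB1 were lower in level and farther away. They were AC073111.3 (distance 1.43), AC107959.5 (1.47), the interferon-induced chemokine gene CXCL10 (1.51), AC108488.2 (1.60) and DPF3 (1.66). CXCL10 was listed at 1.53, 1.16, 0.0202 and 0.695 FPKM, like IFNB1 highest in siLuc DMSO. With 4 groups and values near 0, such distances are a description only.

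**Figure D4:**
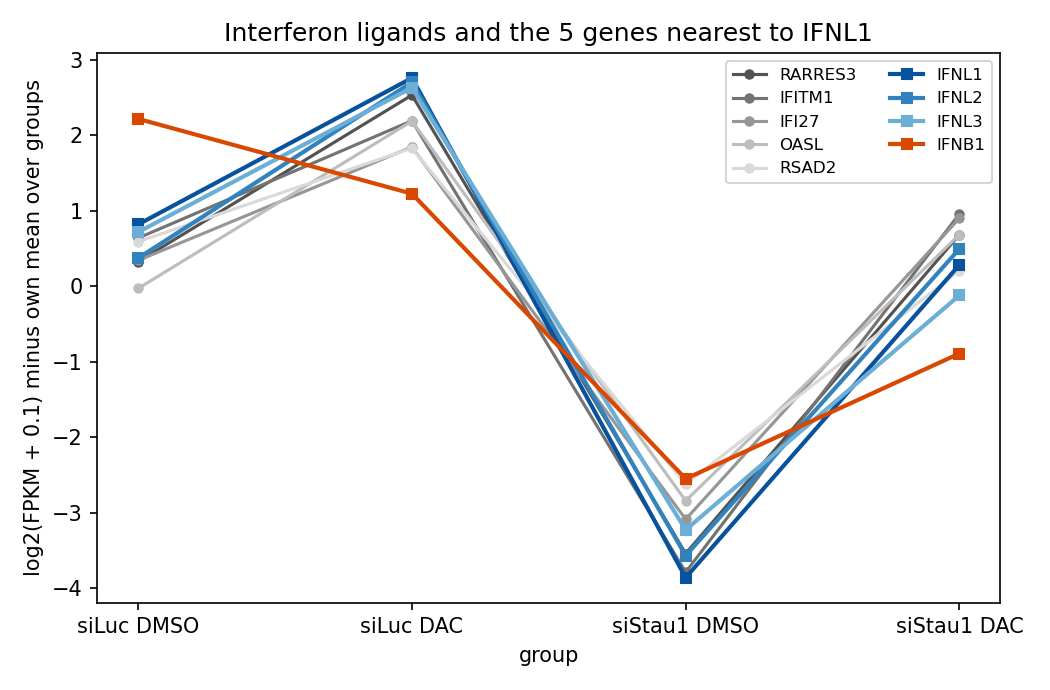
Profiles of the 4 ligands and of the 5 genes nearest to IFNL1 as log2(FPKM + 0.1) minus each gene's mean over the 4 groups (y axis), with lines only joining values of 1 gene. The lambda genes and their nearest genes peak in siLuc DAC and are lowest in siStau1 DMSO, while IFNB1, listed at 0 in siStau1 DMSO, peaks in siLuc DMSO.

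Markers of other cell types were checked beside the ligands, since plasmacytoid dendritic cells and other leukocytes are strong interferon producers. The 7 epithelial markers summed to 2637, 8256, 2172 and 5975 FPKM. The 7 leukocyte markers summed to 1.76, 19.4, 0.800 and 9.38 FPKM, most of it from CD68 (1.498, 17.1, 0.620 and 6.60), a lysosomal protein also made outside leukocytes. PTPRC, the pan-leukocyte marker, was listed at 0, 0.174, 0 and 0.820 FPKM and NKG7 at 0 in all groups. The 4 plasmacytoid dendritic cell markers summed to 0.0157, 1.64, 0.0189 and 1.02 FPKM, with CLEC4C at 0, 1.63, 0 and 0.802 and IL3RA at 0 in all groups. The 5 fibroblast markers summed to 1.77, 10.5, 1.21 and 6.48 FPKM and the 4 endothelial markers to 0.192, 1.45, 0.147 and 1.60. These sums were higher with decitabine, as the lambda genes were, and their part in the ligand values was not tested.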

How the data were processed

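HCT116 total RNA was analysed in 4 groups of 2 libraries. The submitters' processing notes name bcl2fastq 2.20, HISAT2 2.1.0, featureCounts, DESeq 1.36.0, Cuffdiff 2.2.1 and Cuffnorm 2.2.1, and the hg38 build, without roles. The authors deposited FPKM values, 1 per gene and group for 58699 genes, with p-values and q-values, in the layout of Cuffdiff per the file headers. The deposited q-value equals the Benjamini-Hochberg value over all 102180 tests (largest gap 5.27e-07). The smallest deposited p-value is 5e-05. For 3 gene and group pairs the FPKM differed between rows of the table. The spread between libraries is known only to the authors' test, and nothing in the labels says that libraries came from separate cultures, so p-values may measure technical spread.

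With 1 value per group, the planned fits per library were not run, and calls are q-values under 0.05 in the authors' table. Log2 ratios were computed from FPKM plus a pseudocount of 0.1, which understates the change of low genes. The deposited fold changes were not used. For GC content, the median ratio of 20 bins of protein-coding genes by GC content of the longest transcript was subtracted. All 58699 identifiers matched GENCODE 29. Upstream windows came from RefSeq (GRCh38.p14).

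The members and the 13 gene lists were chosen with earlier results of these data known. Genes were named by rule: the 8 members, the 5 protein-coding genes with at least 1 FPKM in some group that were nearest in profile to IFNL1 and to IFNB1, and up to 4 called genes per list and comparison by smallest q-value. Genes named outside it (TYK2, JAK1, IRF9, IL20RB, IL10RA, MAVS, TBK1, SAMD4B, FOCAD, AP000295.1 and the rest) were chosen after their values were seen. The lists were other type I interferons, other interferons, other class II cytokine receptors, IL10 family ligands, kinases and factors below the receptors, negative regulators, double-stranded RNA sensing, interferon-stimulated genes, and markers of epithelial cells, leukocytes, plasmacytoid dendritic cells, fibroblasts and endothelial cells. Alternatives were other thresholds, adjustment within a comparison, pseudocounts of 0.01 and 1, 3 other scalings and IFNL2 and IFNL3 summed or counted once. Not every listed gene is reported by name here. The scripts were tested on simulated data. The tables of antibody-enriched repeat RNA hold no gene and were not used here. Python 3.11.15, pandas 2.3.3, numpy 2.4.6, scipy 1.17.1, Biopython 1.88 and matplotlib 3.10.9 were used.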

Additional observations from a re-analysis of the deposited data

How the results depend on the processing

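The number of the 8 genes called depended on the threshold and the adjustment. For decitabine over DMSO in siLuc it was 1, and 0 at a q-value under 0.01 and 3 with p-values adjusted within that comparison. For siStau1 over siLuc in DMSO it was 1, and 0 where both groups had to be above 0 FPKM, a setting chosen after seeing the data. For siStau1 over siLuc in DAC it was 3, and 1 at a q-value under 0.01 and 0 adjusted within that comparison. The causes are the settings' own construction. Of 40 log2 ratios (8 genes, 5 comparisons), 32 kept their sign and moved by less than 1.5-fold with a pseudocount of 0.01, 30 with 1, 37 with equal summed FPKM of protein-coding genes, 38 with the median of all genes subtracted and 29 with the GC bin median subtracted. Signs changed for 3, 2 and 5 ratios under the last 3 settings, none of a called gene, and among ligands only for IFNL2 in siStau1 DAC over siLuc DMSO (-0.30 relative to GC bins, and -0.41 when IFNL2 and IFNL3 were summed). No paired analysis was possible because the columns hold 1 value per group. Leaving out each replicate and tests per library were not run for the same reason. Depth is unknown, and lambda values in siStau1 DMSO are too low for a firm ratio.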

Other observations

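Among 8 other class II cytokine receptor genes, the family of the interferon receptors, 2 were called with decitabine in siLuc (13.5% of all genes tested were). Of the 7 tested there, 5 had an unadjusted p under 0.05 in the authors' deposited table, against 28.9% of all genes tested. IL20RB (0.747 to 2.96 FPKM) and IL10RA (0.367 to 1.46 FPKM) were among those not called. F3, tissue factor, the receptor that starts blood clotting, was listed at 9.84 FPKM with DMSO and 29.6 with DAC in siLuc cells, and at 9.45 and 30.5 in siStau1 cells. It rose with decitabine in both arms, by 1.58 and 1.68 on the log2 scale (q-values 0.0118 and 0.00162 in the authors' deposited table). IFNGR1, the ligand-binding chain for interferon gamma, was listed at 14.5, 4.88, 21.5 and 14.3 FPKM in the same order. It fell with decitabine in siLuc (log2 ratio -1.55, q-value 0.0194 in the authors' deposited table). It was higher in siStau1 than in siLuc with decitabine (log2 ratio 1.53, q-value 0.0214 in the authors' deposited table). Of all genes tested, 4.78% were called lower in the former comparison and 0.434% higher in the latter. With p-values adjusted within the latter comparison alone no gene passed, IFNGR1 included. Its transcript has a low GC content (40.2%), and relative to genes of similar GC content these ratios were -0.90 and 1.18. Its partner IFNGR2 was listed at 25.9, 27.8, 20.5 and 28.1 FPKM and was not called. The ligand of this pair, IFNG, was listed at 0 in all groups.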
